A study of Mus musculus with 14 samples.

Results

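Nuclear genes for mitochondrial protein import and for the folding, processing and turnover of imported proteins were followed in whole hearts of female FS6KD mice, which carry a gene-trap knockdown of Ndufs6, a subunit gene of respiratory complex I, on a mixed C57BL/6J and 129/Ola background. All 14 libraries, controls included, carry this knockdown. The knockout experiment compared 4 Atf3+/+FS6KD with 4 Atf3-/-FS6KD hearts at 12 weeks, the latter derived from fertilized eggs in which Cas9 removed a stretch from exon 2 to exon 4 of Atf3, a stress-induced transcription factor. The AAV experiment compared 3 heart libraries labelled MyoAAV2-shCtrl with 3 labelled MyoAAV2-shAtf3. MyoAAV2 is a viral vector directed at muscle that delivered a short hairpin RNA to neonatal FS6KD mice, and hearts were taken 12 weeks later. The members are the rows whose symbols begin with Timm or Tomm followed by a digit, plus 15 named chaperone, peptidase, protease and scaffold genes, with a CPM (the count as a share of the library's total, per 1000000 counts) above 1 in at least 1 library. Of 41 rows that matched, Timm8a2 and Tomm20l stayed below 1 CPM everywhere, which left 39 of 42396 listed genes. All 39 were above 1 CPM in all 14 libraries, so the filter on low values chose none of them through 1 group.

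Almost every mitochondrial protein is made in the cytosol and enters through the TOM complex of the outer membrane. Small TIM chaperones of the intermembrane space carry membrane proteins on to TIM22, whereas the TIM23 complex, with the motor chaperone Hspa9 (mortalin), draws precursors with a cleavable signal into the matrix. There the processing peptidase (Pmpca and Pmpcb) removes the signal, and Hspd1 and Hspe1 (HSP60 and HSP10) fold the product. AAA+ proteases such as Lonp1, Clpp with Clpx, Yme1l1 and the Afg3l2/Spg7 pair remove damaged proteins. In the heart, where mitochondria fill much of the myocyte, several of these genes are also known as targets of mitochondrial stress responses. By these roles the members were 9 TOM genes, 8 small TIM and TIM22 genes, 6 TIM23 genes, 4 chaperones, 2 processing peptidase genes, 8 proteases and the inner membrane scaffold gene Phb2 (prohibitin 2), with the antisense RNA Tomm6os as the 39th row.

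Sequence around the start sites was examined for letters that the members share. The rule that chose them used names and the 1 CPM filter, and was set with earlier results of these data known. RefSeq windows of GRCm38.p6 (250 bases before to 50 bases after a start) were matched for 33 of the 39 members and for 11528 of the tested genes. The ETS letters CCGGAAG, searched on both strands, stood in the windows of 15 of 33 members (45.5%), against 18.4% of tested genes and 9.93% of all 27025 genes with a window. The ERR half-site AAGGTCA was found in 6 of 33 members (18.2%; 4.08% of tested and 5.38% of all genes), namely Hspd1, Hspe1, Timm23, Timm44, Timm8b and Trap1. Hspd1 and Hspe1 run in opposite directions from a shared start region on chromosome 1, so their matches to both motifs and to the heat shock letters GAANNTTC are the same bases and are not independent. The sites below are shown for a selection of matching genes that stand out in the comparisons below, none of which passed the test. Each is in the direction of its gene with the motif in capitals and 10 bases on either side. The first 5 are ETS matches, the next 3 are ERR half-sites, and the last is the heat shock match of Timm9.
Hspe1 ETS, chr1:55088061-55088087, plus strand: ctagaaccttCCGGAAGgccccgcgcg
Timm23 ETS, chr14:32201865-32201891, minus strand: gagccggcgcCCGGAAGgtcagcgtgg
Phb2 ETS, chr6:124712282-124712308, plus strand: gggaggcgcaCTTCCGGtgccctttct
Tomm22 ETS, chr15:79670863-79670889, plus strand: ctctcttccgCTTCCGGtgtcctacag
Pmpcb ETS, chr5:21737134-21737160, plus strand: gagtcatgacCCGGAAGtacatctcca
Hspe1 ERR half-site, chr1:55088090-55088116, plus strand: ccgtgggtgaAAGGTCAagtggcgtca
Timm23 ERR half-site, chr14:32201861-32201887, minus strand: cggcgcccggAAGGTCAgcgtggtgaa
Timm44 ERR half-site, chr8:4275894-4275920, minus strand: gcgacgcaggAAGGTCAcacgggctct
Timm9 heat shock element, chr12:71136855-71136882, minus strand: aggctttctaGAAATTTCgacagattcc

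In Timm23 the printed ETS and ERR letters overlapped by their AAG and lay just downstream of the start, the ETS match beginning at base 11 and the ERR match at base 15. The ETS match printed for Hspe1 began 77 bases before its start, and its first letter is also the last of the heat shock match. Another ETS match, in the reverse orientation, overlaps it by the letters CCGG. The windows held 2 ETS matches for Timm23, 3 each for Phb2 and Tomm22 and 1 for Pmpcb, and the one nearest to the start is printed. The printed ETS matches of Phb2 and Tomm22 stood in the reverse orientation at bases 4 and 6 after the start. The CRE letters TGACGTCA were present in Trap1 alone (3.03% of members; 3.28% of tested and 2.03% of all genes), the AP-1 letters TGANTCA in Timm22, Tomm20 and Tomm34 (9.09%; 6.34% and 8.97%), and the ATF/CHOP letters TGATGNAA in 0 of 33 members (2.79% and 4.51%). The NRF1 letters GCGCANGCG occurred in 7 members (21.2%; 13.9% and 7.03%), and the heat shock letters in Hspd1, Hspe1 and Timm9 (9.09%; 7% and 9.04%). A match describes letters in this window and was not tested as a binding site.

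Libraries held 33914931 to 134920825 counts in the knockout experiment and 30085432 to 40534913 in the AAV experiment. In both genotypes replicates 3 and 4 were deeper than replicates 1 and 2. The study describes the knockout hearts as biological replicates. For the AAV libraries separate animals are not stated in the sources used here, so p-values there measure only the spread between these samples, which may be technical. Atf3 itself did not follow the labels. Replicates 1 to 4 of Atf3+/+FS6KD held 25.8, 6.89, 6.91 and 6.36 CPM of it. Those of Atf3-/-FS6KD held 25.6, 37.6, 22.7 and 14.3 CPM, and reads from exons outside the deletion are counted there too. It was at 10.1, 13.3 and 14.1 CPM in the libraries labelled shCtrl and at 21.2, 12.1 and 16.5 CPM in those labelled shAtf3. In the deposited AAV table the columns are named in reverse, shAtf3-labelled libraries as controls, so directions given for that experiment hold only under the labels. Ndufs6 was at 2.34 to 3.79 CPM in all 14 libraries. Cardiomyocyte markers summed to between 53645 and 76949 CPM, and of 4 atrial markers Myl7, Sln and Bmp10 did not pass the filter in either experiment, and Myl4 had group means of 2.05 to 2.59 CPM.

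Expressed per length (CPM per kb of the principal transcript, mean of 14 libraries), Hspa9, Timm23 and Hspd1 stood at the head of the members. Hspa9 was at 430, Timm23 at 257, Hspd1 at 234, Tomm5, a small TOM subunit, at 229, and Timm8b, a small TIM, at 190, while the chaperone genes Hspe1 and Trap1 were lower at 159 and 80. Their ranges over the libraries were 359 to 511 for Hspa9, 223 to 295 for Timm23, 187 to 284 for Hspd1 and 187 to 264 for Tomm5, so the levels of Timm23, Hspd1 and Tomm5 overlapped, and Hspa9 was above them in all 14 libraries. At the low end were Timm17b at 10.9, Tomm34 at 8.21, Timm10b at 7.68 and Tomm6os at 2.75. The receptor gene Tomm22 (coefficient of variation 16.6%), Hspe1 (16.5%), Timm10 (15.8%) and the protease subunit Clpx (17.7%) varied most over the 14 libraries, and Tomm7 (4.11%) least.

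Most partner genes of a machine had unequal levels. Per length, Hspd1 was 1.53 times Hspe1 in the knockout experiment (geometric mean) and 1.42 times in the AAV experiment, Timm17a was 1.76 and 2.08 times its paralog Timm17b, Tomm40 was 2.16 and 1.9 times its paralog Tomm40l, and Afg3l2 was 2.1 and 2.05 times Spg7. Pmpca was 0.444 and 0.402 times Pmpcb, whereas Clpp and Clpx were close to each other, with Clpp 1.03 and 1.2 times Clpx. In CPM not divided by length, Tomm40 was 0.755 and 0.665 times Tomm40l, and Clpp 0.35 and 0.408 times Clpx. The order of Tomm40 and Tomm40l thus rests on the transcript lengths used, 1646 and 4712 bases. No partner ratio passed an exact permutation test between groups (two-sided, adjusted over 8 pairs; adjusted p 0.914 for each in the knockout experiment and 0.8 to 1 in the AAV experiment). The largest log2 difference was that of Timm8a1 against Timm8b in the knockout experiment, 0.22 higher in Atf3-/-FS6KD (-1.62 ± 0.20 against -1.84 ± 0.16; SD, n = 4 each; exact permutation p = 0.114). The smallest p that this test can give is 0.0286 in the knockout and 0.1 in the AAV experiment, or 0.229 and 0.8 after adjustment for a ratio that differs alone, so a single ratio could not have passed in either.

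The knockout comparison asked how these genes stood in FS6KD hearts without intact Atf3. Members of the quality control roles were slightly lower in Atf3-/-FS6KD and import members were divided, and none passed the test (edgeR quasi-likelihood, Benjamini-Hochberg adjusted p below 0.05). Of all 15592 genes tested 0% passed it, and the lowest adjusted p of a member was 0.441. In log2 fold change 28 members were lower and 11 higher, with a median of -0.06 against 0.00 over all genes. Of the 15 quality control members 14 were lower (median -0.10), and of the 24 Timm and Tomm rows 14 were lower (median -0.05). At an unadjusted p below 0.05 there were 2 lower members (5.13%; 4.69% of all genes) and 1 higher (2.56%; 5.41% of all genes), shares near the background.

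**Figure D1:**
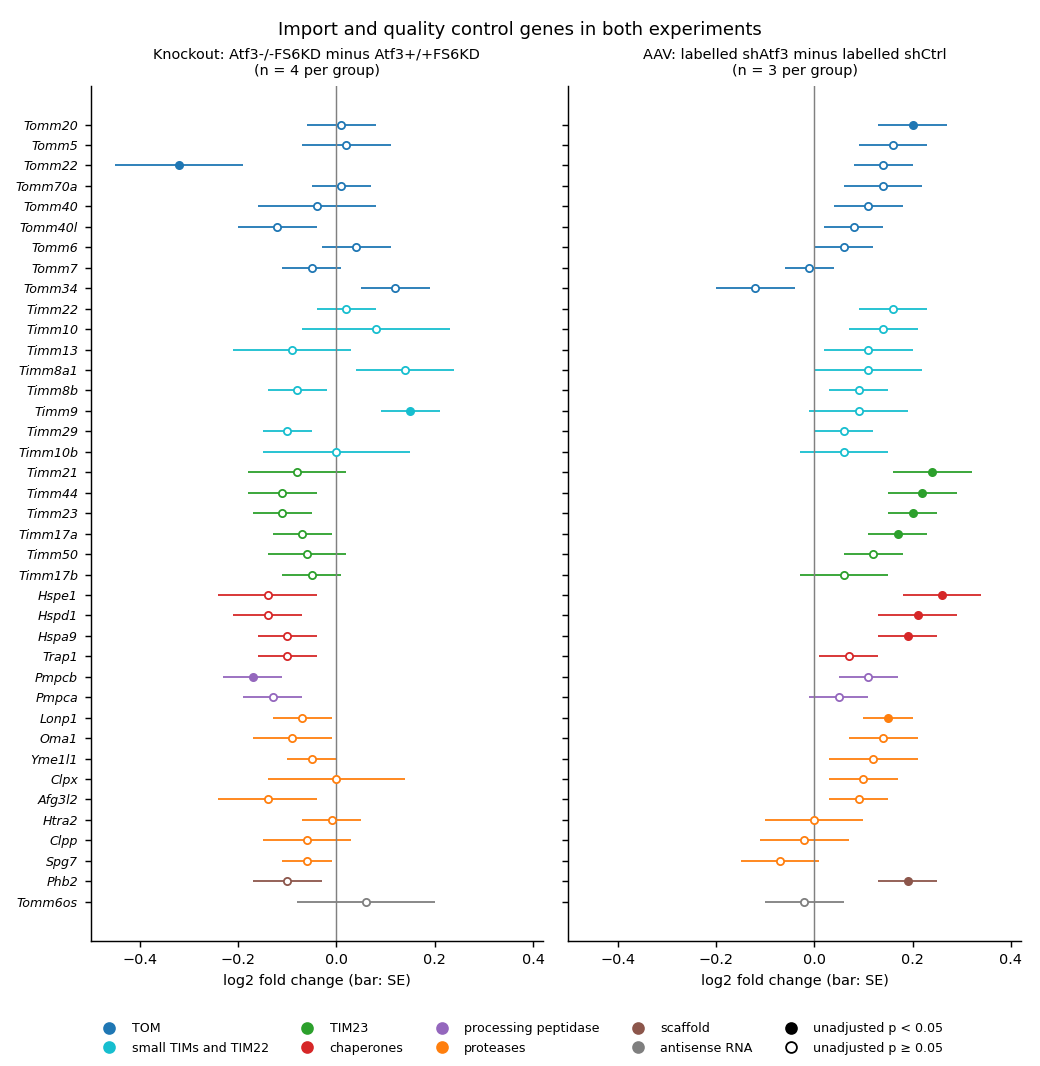
Log2 fold change of each of the 39 members with its standard error (bars) in the knockout (left, n = 4 per group) and AAV experiment (right, n = 3 per group), grouped by role. Filled points have an unadjusted p below 0.05, 3 on the left and 10 on the right. The TIM23 genes and chaperones lie left of 0 in the knockout panel and right of 0 in the AAV panel.

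Pmpcb encodes the catalytic subunit of the processing peptidase. Its level was 244, 265, 253 and 246 CPM in replicates 1 to 4 of Atf3+/+FS6KD and 233, 242, 206 and 217 CPM in those of Atf3-/-FS6KD, the order used throughout. Every Atf3-/-FS6KD library was below every Atf3+/+FS6KD library, by 2 CPM at the nearest, and Pmpcb was the one member without overlap (2.56%; 2.63% of all genes lay lower without overlap, and 3.08% higher, as 0 members did). Its log2 fold change was -0.17 (SE 0.06, unadjusted p 0.0286, edgeR adjusted p 0.441). The partner Pmpca, at 215, 221, 206 and 215 CPM in Atf3+/+FS6KD and 210, 197, 179 and 198 CPM in Atf3-/-FS6KD, overlapped through Atf3-/-FS6KD replicate 1 (log2 fold change -0.13, SE 0.06, edgeR adjusted p 0.512).

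Tomm22, a receptor that links the TOM channel to incoming precursors, had the lowest log2 fold change of the members, -0.32 (SE 0.13, unadjusted p 0.0292, edgeR adjusted p 0.445). It was at 76.1, 102, 98.2 and 103 CPM in Atf3+/+FS6KD and at 74.7, 88.7, 78.3 and 62.2 CPM in Atf3-/-FS6KD. The groups overlapped through Atf3+/+FS6KD replicate 1, which was also the control library with the high Atf3 value. In replicates 1 and 2 alone its log2 fold change was -0.12, and in replicates 3 and 4 alone -0.52. The opposite case was Timm9, whose small TIM protein pairs with Timm10, at 17.1, 16.9, 16.5 and 18 CPM against 19.7, 19.2, 19.3 and 17.8 CPM. In Timm9, 3 of 4 Atf3-/-FS6KD libraries were above all controls (log2 fold change 0.15, SE 0.06, unadjusted p 0.0364, edgeR adjusted p 0.459). Its partner Timm10 did not follow at 47.1, 41.9, 66.4 and 55.9 CPM against 47.3, 59, 63.6 and 53.2 CPM (log2 fold change 0.08, SE 0.15).

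The 4 chaperones were all lower in Atf3-/-FS6KD on average, by small amounts that did not pass the test. Hspd1 was at 550, 543, 595 and 525 CPM in Atf3+/+FS6KD and at 558, 513, 480 and 453 CPM in Atf3-/-FS6KD, a log2 fold change of -0.14 (SE 0.07, edgeR adjusted p 0.549). Its cochaperonin gene Hspe1 was at 118, 105, 136 and 103 CPM against 103, 115, 107 and 95.3 CPM (-0.14, SE 0.10). The annotated spans of this pair overlap by 96 bases, and whether the counting used strand is not given in the sources used here, so part of their reads cannot be assigned with certainty. Hspa9 was at 1250, 1304, 1276 and 1244 CPM against 1214, 1280, 1130 and 1095 CPM (-0.10, SE 0.06). In Hspd1 and Hspa9 the deeper Atf3-/-FS6KD replicates 3 and 4 were below every control, and 1 of the shallower replicates lay within the control range. In replicates 1 and 2 alone the log2 fold changes of Hspd1, Hspe1 and Hspa9 were -0.03 each, and in replicates 3 and 4 alone -0.27, -0.24 and -0.18. Trap1, a matrix chaperone of the HSP90 family, had a log2 fold change of -0.10 (SE 0.06).

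All 6 TIM23 genes were lower on average, between -0.11 and -0.05, with edgeR adjusted p of 0.575 or more. Timm23, the channel subunit, was at 282, 318, 286 and 305 CPM in Atf3+/+FS6KD and at 262, 289, 284 and 271 CPM in Atf3-/-FS6KD (log2 fold change -0.11, SE 0.06). Timm17a, its short-lived partner, was at 143, 157, 142 and 142 CPM against 141, 150, 134 and 132 CPM (-0.07, SE 0.06). Timm44, which holds Hspa9 at the channel, had a log2 fold change of -0.11, Timm21 -0.08, the receptor Timm50 -0.06 and Timm17b -0.05. Groups overlapped in all of them.

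Of the 8 proteases 7 were lower on average, between -0.14 and -0.01, and all overlapped. Lonp1, the main matrix protease, was at 244, 245, 281 and 258 CPM against 256, 251, 239 and 236 CPM (log2 fold change -0.07, SE 0.06). Afg3l2, of the inner membrane m-AAA protease, was at 252, 294, 298 and 336 CPM against 255, 301, 280 and 232 CPM (-0.14, SE 0.10), and its partner Spg7 differed by -0.06. Clpp was at 50.9, 54.8, 59.5 and 63.8 CPM against 52.9, 49, 59.2 and 58.8 CPM (-0.06, SE 0.09), while its unfoldase Clpx ranged from 128 to 202 CPM among the controls and from 139 to 180 CPM in Atf3-/-FS6KD (0.00, SE 0.14). The stress-activated protease gene Oma1 was at 42.1, 41.3, 36.9 and 37.1 CPM against 41.3, 35.4, 33.7 and 37.3 CPM (-0.09, SE 0.08). Htra2, of the intermembrane space, was at 25, 23.3, 23.3 and 23.6 CPM against 24.9, 22.9, 23.7 and 23.1 CPM (-0.01, SE 0.06). Yme1l1 differed by -0.05, and the inner membrane scaffold gene Phb2 by -0.10 (SE 0.07).

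TOM genes other than Tomm22 lay between -0.12 (Tomm40l, SE 0.08) and 0.12 (Tomm34, a cytosolic cochaperone of precursors, SE 0.07). The receptor Tomm20 was at 112, 109, 128 and 115 CPM against 105, 125, 122 and 113 CPM (0.01, SE 0.07), the receptor Tomm70a differed by 0.01, and the channel Tomm40 was at 63.2, 71.7, 80.5 and 90.2 CPM against 63.3, 72.6, 86.7 and 73.7 CPM (-0.04, SE 0.12). Tomm6 and its antisense RNA Tomm6os overlap by 777 bases and differed by 0.04 and 0.06. Small TIM and TIM22 genes lay between -0.10 (Timm29, SE 0.05) and 0.15 (Timm9), with Timm8a1 at 0.14 (SE 0.10). Timm8a1 was at 0.07 without Atf3-/-FS6KD replicate 3 and at 0.21 without Atf3-/-FS6KD replicate 4.

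Some of these genes differed more between replicates 1 and 2 and replicates 3 and 4 than between genotypes. In 6 members (15.4%; 5.87% of all genes) both deeper replicates of each genotype were above all shallower ones, and in 2 (5.13%; 3.19% of all genes) they were below. Timm10b was at 19.7 to 23.3 CPM in replicates 1 and 2 and at 27.1 to 29.9 CPM in replicates 3 and 4, a log2 difference of 0.40 where genotype gave -0.00. Timm13 (0.31), Tomm40 (0.29), Clpp (0.22) and Timm50 (0.16) were higher in the deeper libraries and Timm21 (-0.20) and Tomm7 (-0.12) lower. Depth and any other difference between these replicate sets cannot be told apart. With the replicate set as a term the counts of members barely moved, with 3 lower and 1 higher at an unadjusted p below 0.05. Of all 15592 genes 918 were then lower and 964 higher at that p.

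The members' position against 0 rests on scaling. Scaled by library size alone, the median of all genes moved to 0.06 and that of the members to 0.00, with 19 lower and 20 higher, so the members' position below all genes stayed at 0.06 while their position against 0 did not. Without Atf3+/+FS6KD replicate 1 there were 31 lower members (median -0.09). In replicates 3 and 4 alone 33 were lower (median -0.07), and in replicates 1 and 2 alone 24 (median -0.03). In these sets, replicates 3 and 4 first, Pmpcb was at -0.24 and -0.09, Afg3l2 at -0.31 and 0.03 and Lonp1 at -0.18 and 0.05. The difference between the replicate sets was not tested.

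**Figure D2:**
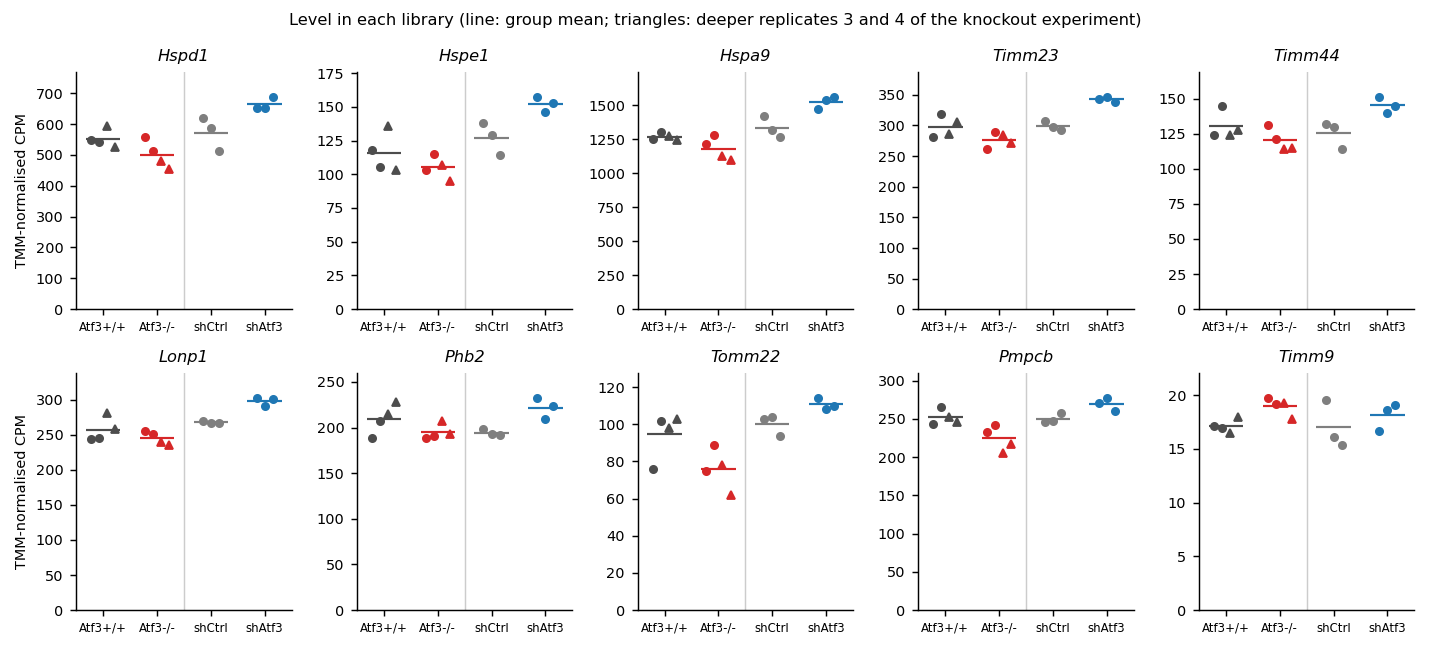
TMM-normalised CPM of 10 members in each of the 14 libraries, with the group mean as a line and axes from 0. In the AAV experiment the 3 libraries labelled shAtf3 are above the 3 labelled shCtrl for every gene shown but Timm9. In the knockout experiment only Pmpcb separates the genotypes.

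The AAV comparison asked the same of hearts that had received the hairpin vectors. Most members were higher in the libraries labelled shAtf3, among them genes of the TIM23 complex, the matrix chaperones and Phb2, and again none passed the adjusted threshold (lowest edgeR adjusted p 0.188, Timm23; 82 of 15225 genes, 0.539%, passed). In log2 fold change 33 members were higher and 6 lower, with a median of 0.11 against -0.00 over all genes. At an unadjusted p below 0.05 there were 10 higher members (25.6%; 5.05% of all genes) and 0 lower (7.65% of all genes). Groups did not overlap in 17 higher members (43.6%; 8.48% of all genes). DESeq2 gave 11 and limma-trend 12 members with an unadjusted p below 0.05, all higher, and called none. In these fits 671 and 782 of 15225 genes were higher at that p. Leaving out 1 library gave 8 to 15, and the number of genes called overall then ran from 1 (without the library labelled shAtf3 replicate 2) to 285 (without that labelled shCtrl replicate 3).

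Of the 4 chaperones 3 were higher at an unadjusted p below 0.05, each without overlap. Hspe1 was at 138, 129 and 114 CPM in the libraries labelled shCtrl and at 157, 146 and 153 CPM in those labelled shAtf3, the highest log2 fold change of the members (0.26, SE 0.08, unadjusted p 0.00916, edgeR adjusted p 0.229). Hspd1 was at 620, 586 and 512 CPM against 652, 654 and 687 CPM (0.21, SE 0.08, edgeR adjusted p 0.287). Hspa9 was at 1421, 1318 and 1267 CPM against 1475, 1538 and 1560 CPM (0.19, SE 0.06, edgeR adjusted p 0.243). In all 3 the lowest library labelled shAtf3 was above the highest labelled shCtrl, and in each the library labelled shCtrl replicate 3 was the lowest. Trap1 differed by 0.07 (SE 0.06) and overlapped.

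All 6 TIM23 genes were higher on average, 4 of them at an unadjusted p below 0.05 and 5 without overlap. Timm23 was at 308, 298 and 293 CPM against 344, 346 and 339 CPM, a log2 fold change of 0.20 (SE 0.05, unadjusted p 0.00515), with group means of 300 ± 7.82 and 343 ± 3.77 CPM (SD, n = 3). Over all alternatives tried its adjusted p ranged from 0.0644 to 0.45. Timm17a was at 155, 155 and 143 CPM against 171, 165 and 174 CPM (0.17, SE 0.06). Timm44 was at 132, 130 and 114 CPM against 151, 140 and 145 CPM (0.22, SE 0.07), and Timm21 at 53.7, 52.2 and 43.9 CPM against 57.4, 60.1 and 59.8 CPM (0.24, SE 0.08). Timm50 differed by 0.12 without overlap. Timm17b, the paralog of Timm17a, differed by 0.06 (SE 0.09) and overlapped.

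**Figure D3:**
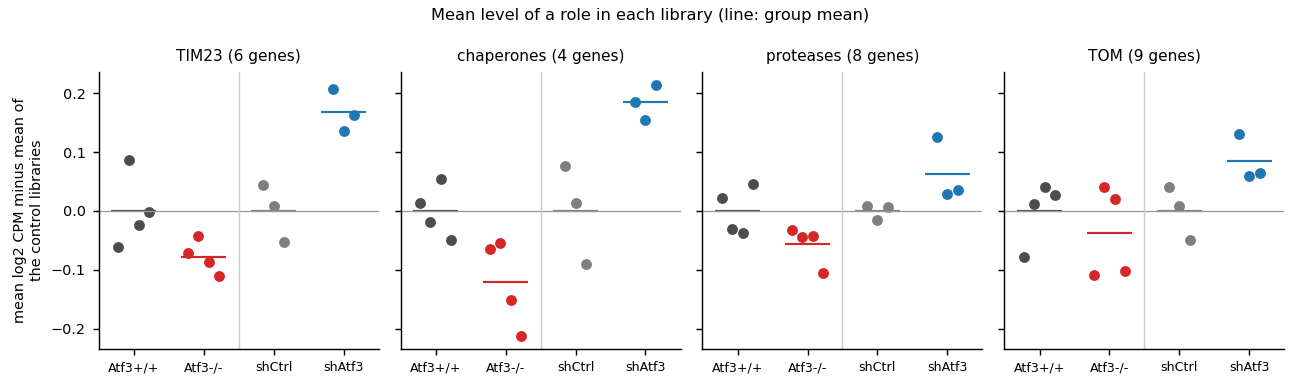
Mean log2 CPM of the TIM23, chaperone, protease and TOM genes in each library, as the difference from the mean of the control libraries of the same experiment, with group means as lines. The libraries labelled shAtf3 lie above all those labelled shCtrl in each panel, by most in TIM23 and chaperones (0.136 to 0.215 above the control mean).

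Phb2 was at 198, 193 and 192 CPM in the libraries labelled shCtrl and at 232, 209 and 224 CPM in those labelled shAtf3 (log2 fold change 0.19, SE 0.06, edgeR adjusted p 0.237). Among the proteases Lonp1 was at 270, 267 and 267 CPM against 302, 291 and 301 CPM (0.15, SE 0.05, edgeR adjusted p 0.275). Oma1, at 38.2, 38.6 and 36.3 CPM against 41.8, 43.6 and 39 CPM (0.14, SE 0.07), and Afg3l2, at 256, 257 and 227 CPM against 257, 263 and 265 CPM (0.09, SE 0.06), also did not overlap, the latter by under 1 CPM at its nearest and with a log2 fold change of 0.03 without the library labelled shCtrl replicate 3. Clpp was at 49.8, 50.6 and 54.8 CPM against 56.4, 44.7 and 52.2 CPM (-0.02, SE 0.09), Htra2 at 21, 21.5 and 25.3 CPM against 24.2, 20.1 and 23.2 CPM (-0.00, SE 0.10) and Spg7 at 114, 113 and 130 CPM against 121, 109 and 110 CPM (-0.07, SE 0.08). The proteases were thus divided, with 3 of 8 higher without overlap.

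In the outer membrane, Tomm20 was at 132, 123 and 118 CPM against 152, 139 and 139 CPM (0.20, SE 0.07, edgeR adjusted p 0.252). Tomm22 was at 103, 104 and 93.8 CPM against 114, 108 and 110 CPM (0.14, SE 0.06, edgeR adjusted p 0.398) and Tomm5 was at 158, 151 and 132 CPM against 169, 161 and 164 CPM (0.16, SE 0.07). Without the library labelled shCtrl replicate 3 the log2 fold changes of Tomm22 and Tomm5 were 0.09 each. Tomm70a differed by 0.14 (0.05 without that library) and overlapped. Tomm40 was at 67.5, 65.6 and 69.7 CPM against 77.6, 66.6 and 74.3 CPM (0.11, SE 0.07) and overlapped. Its log2 fold change was 0.06 without the library labelled shAtf3 replicate 1 and 0.18 without that labelled shAtf3 replicate 2. Tomm34 was the one member lower without overlap (2.56%; 9.94% of all genes), at 18.6, 18.3 and 18.4 CPM against 18, 17.9 and 15.1 CPM (-0.12, SE 0.08, edgeR adjusted p 0.619, and -0.04 without the library labelled shAtf3 replicate 3), and Tomm7 (-0.01) and Tomm6os (-0.02) were nearly level. The 8 small TIM and TIM22 genes were all higher on average, between 0.06 and 0.16, with 0 at an unadjusted p below 0.05 and 1 without overlap, Timm22, the channel of the carrier pathway (0.16, SE 0.07). Pmpcb was at 246, 247 and 258 CPM against 271, 277 and 261 CPM (0.11, SE 0.06), also without overlap, and Pmpca differed by 0.05.

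Cell type markers were read beside the members. The 7 fibroblast markers were all higher in Atf3-/-FS6KD (median log2 fold change 0.41, 5 at an unadjusted p below 0.05), with summed levels of 1687 to 2029 CPM in Atf3+/+FS6KD and 2003 to 2732 CPM in Atf3-/-FS6KD. In the AAV experiment all 7 were lower in the libraries labelled shAtf3 (median -0.82, 4 past the adjusted threshold), at 1736 to 1820 CPM against 2329 to 3198 CPM. These calls depend on the fit, since with all 4 groups fitted together 1 of 15708 genes passed in the AAV comparison. Of 8 cardiomyocyte markers 7 were lower in Atf3-/-FS6KD (median -0.14, 2 at an unadjusted p below 0.05). Actc1 was higher there (log2 fold change 0.47, SE 0.12, edgeR unadjusted p 0.00341). All 8 were higher in the libraries labelled shAtf3 (median 0.11, 1 at an unadjusted p below 0.05). Summed levels were 63461 to 76949 CPM in Atf3+/+FS6KD and 53645 to 71494 CPM in Atf3-/-FS6KD. They were 59944 to 67403 CPM in the libraries labelled shCtrl and 64835 to 70504 CPM in those labelled shAtf3. Of 6 macrophage markers 5 were higher in Atf3-/-FS6KD (median 0.21, 2 at an unadjusted p below 0.05; summed levels 131 to 167 against 140 to 200 CPM) and 5 lower in the libraries labelled shAtf3 (median -0.19, 3 at an unadjusted p below 0.05; 194 to 212 against 182 to 185 CPM), the control range first. Of 5 endothelial markers all 5 were higher in Atf3-/-FS6KD (median 0.10) and 4 in the libraries labelled shAtf3 (median 0.03). Macrophage and endothelial markers did not pass the adjusted threshold in either experiment. In whole hearts fewer cells of a type and less RNA per cell cannot be told apart, and the part of cell makeup in the members' differences was not tested.

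Other genes of the same machines, which are no members, were read in both comparisons. Of 16 import partners 10 were lower in Atf3-/-FS6KD (median -0.05; 3, or 18.8%, at an unadjusted p below 0.05, against 4.69% of all genes) and 15 higher in the libraries labelled shAtf3 (median 0.13; 4, or 25%, against 5.05% of all genes), and 0 passed the adjusted threshold in either. The smallest p in the knockout comparison was that of Gfer, the sulfhydryl oxidase of the intermembrane space relay, with means of 19.2 (Atf3+/+FS6KD) and 16.2 CPM (Atf3-/-FS6KD) (log2 fold change -0.25, SE 0.06, edgeR adjusted p 0.277), and then that of Mtch2 (-0.12, SE 0.05). In the AAV comparison it was that of Grpel1, the nucleotide exchange factor of Hspa9 (0.20, SE 0.06, edgeR adjusted p 0.214), and then of the insertase Oxa1l (0.19, SE 0.06). Of 13 quality control partners all 13 were lower in Atf3-/-FS6KD (median -0.12; 3, or 23.1%, at an unadjusted p below 0.05, against the same 4.69%) and all 13 higher in the libraries labelled shAtf3 (median 0.07; 3, or 23.1%, against 5.05%), again with 0 past the threshold. Parl, an inner membrane rhomboid protease (-0.17, SE 0.06), and Hscb (-0.20, SE 0.08) led in the knockout comparison, and Dnaja3, a matrix cochaperone of Hspa9 (0.19, SE 0.06), and Phb, the partner of Phb2 (0.17, SE 0.06), in the AAV comparison.

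Regulators of mitochondrial stress and biogenesis did not pass the test either. Ppargc1a, the coactivator of mitochondrial biogenesis that works with ERR factors, had means of 120 (Atf3+/+FS6KD) and 104 CPM (Atf3-/-FS6KD) (log2 fold change -0.21, SE 0.10, edgeR adjusted p 0.527) and of 105 and 127 CPM in the libraries labelled shCtrl and shAtf3 (0.28, SE 0.06, edgeR adjusted p 0.121), the latter without overlap. Atf4 (0.13 and -0.13), Atf5 (-0.10 and 0.18), Ddit3 (0.13 and -0.01) and Hsf1 (0.09 and -0.14) are given as knockout and AAV log2 fold changes in that order. Only Hsf1 of these did not overlap, in the AAV experiment, where it was lower in the libraries labelled shAtf3.

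The difference between the effects (knockout effect minus AAV effect) was tested as a contrast in edgeR with all 14 libraries fitted together. It uses the libraries of both comparisons again, with the members' direction in each already known, and is not independent evidence of it. No member passed the adjusted threshold, and 26 of 15708 genes (0.166%) did. At an unadjusted p below 0.05 there were 15 members (38.5%; 7.53% of all genes) with a negative difference and 0 with a positive one (9.43% of all genes). The negative ones included all 4 chaperones, both processing peptidase genes and 4 of 6 TIM23 genes. Timm23 had the smallest p (difference -0.31, SE 0.08, unadjusted p 0.00132, edgeR adjusted p 0.0888). It was followed by Hspa9 (-0.30, SE 0.08, edgeR adjusted p 0.104), and Tomm22 had a difference of -0.47 (SE 0.16, edgeR adjusted p 0.166). The median difference of the members was -0.17 against 0.00 over all genes. Scaled by library size alone, the median of all genes moved to 0.11 and that of the members to -0.07. At an unadjusted p below 0.05, 5 members were then negative, as were 418 of 15708 genes. The result rests on the direction of the AAV labels. With that direction turned, a contrast chosen after seeing the data, edgeR called 0 of 15708 genes (310 positive and 341 negative at an unadjusted p below 0.05), and 0 members had an unadjusted p below 0.05 in either direction. The median difference of the members was then 0.07 against -0.00 over all genes, with Timm23 at 0.09 (SE 0.08, unadjusted p 0.258), Hspa9 at 0.09 (SE 0.08, unadjusted p 0.299) and Tomm22 at -0.18 (SE 0.16, unadjusted p 0.282).

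**Figure D4:**
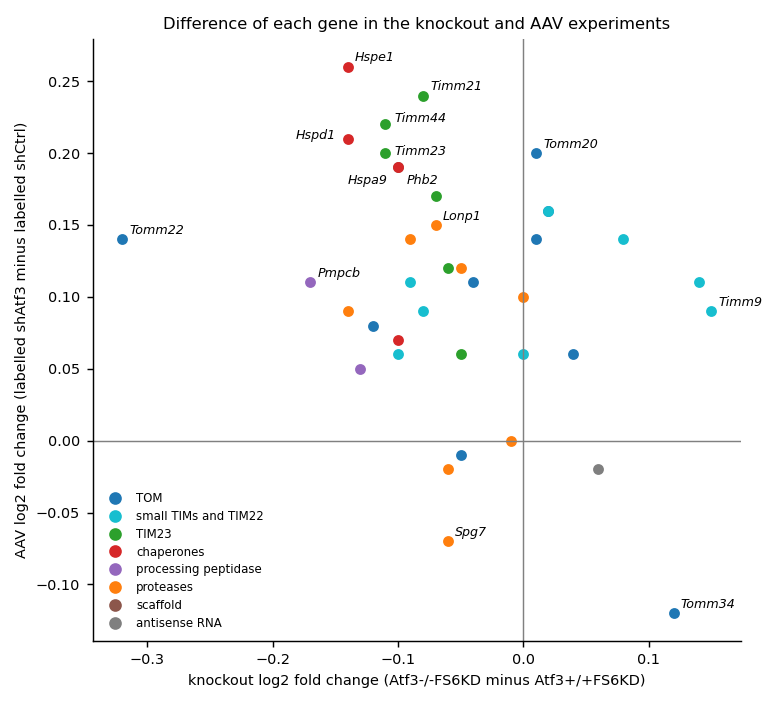
Knockout log2 fold change (x axis) against AAV log2 fold change (y axis) for the 39 members, coloured by role; the points of Hspa9 and Phb2, and of Tomm5 and Timm22, coincide. The upper left part, lower in Atf3-/-FS6KD and higher in the libraries labelled shAtf3, holds 24 members.

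By sign alone, 24 of 39 members (61.5%) were lower in Atf3-/-FS6KD and higher in the libraries labelled shAtf3, against 31.4% of 15109 genes tested in both. The members Tomm34 and Tomm6os (5.13%; 32% of all genes) were higher in Atf3-/-FS6KD and lower in the libraries labelled shAtf3. Opposite signs as such were about as frequent in the members (26 of 39, 66.7%) as in all genes (63.4%). A further 9 members were higher in both and 4 lower in both. These signs are conditional on the AAV labels and would be the same in both experiments for those 26 members if the column names were read instead.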

How the data were processed

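Stranded mRNA libraries of whole hearts had been sequenced single-end. The authors' deposited tables hold estimated counts per gene and library, neither normalized nor pooled. GRCm38.p6 and featureCounts 2.0.0 are named in the submitters' processing notes, and the aligner, strand use and handling of multi-mapping reads are not given in the sources used here. Between 19.3% and 24.4% of values per library were not whole and were rounded, whereas whole counts had been assumed in the planned design. Groups follow the GEO labels.

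Genes that exceeded 1 CPM in 1 or more libraries of a comparison were tested with edgeR 4.0.16 in R 4.3.3 (TMM scaling, two-sided quasi-likelihood test, adjustment by Benjamini-Hochberg over all genes), each experiment alone without covariates, and the interaction on all 14 libraries. CPM are TMM-normalised, and SD is between libraries. The scripts were tested on simulated data. The members, gene lists and roles were chosen with earlier results of these data known. Named genes are 12 fixed members, the 5 smallest unadjusted p per direction and comparison, and other members by role. Partner ratios (prior count 2) were compared by exact permutation. Alternatives were DESeq2 1.42.0, limma-trend (limma 3.58.1), other scalings and filters, replicate set (1 and 2, 3 and 4), summed copies, a replicate block, leaving out each library and, added after seeing the data, the AAV direction turned. The biological coefficient of variation was 16.4% (knockout) and 9.37% (AAV). No pair of replicates agreed within sampling noise (chi-square per gene 6.83 to 92.3). Lengths are those of principal transcripts, the longest where several ranked alike.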

Additional observations from a re-analysis of the deposited data

Results flagged for a closer look

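Of 66 groups of 4 libraries examined for a sample far from the others, 1 was marked, where chance marks about 1 in 20. Timm17a was at 157 CPM in Atf3+/+FS6KD replicate 2, against 142 to 143 CPM in the other 3 control libraries, a gap of 0.892 of the group's range, above Dixon's 95% critical value. The same library held the highest control level of Timm23, Timm44 and Timm21 (318, 145 and 60.9 CPM). Timm50 and Timm17b, also of TIM23, were highest in control replicate 3 (55.4 and 28.4 CPM, against 48.1 and 26.6 CPM in replicate 2).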

How the results depend on the processing

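Of 1251 values recomputed, 1129 kept their direction and side of the threshold (fold changes and ratios, whose size was not compared), stayed within 1.5 times (counts) or moved by less than 1 SD (medians), 57 changed sign and 65 moved. No member passed the adjusted threshold under any alternative. The cause of these changes was not tested.

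In the knockout comparison, library size alone gave 2 higher and 0 lower members at an unadjusted p below 0.05. Of all 15592 genes 1652 were then higher and 330 lower at that p. The members' median was 0.00, with Clpp at 0.00, Tomm40 at 0.02, Htra2 at 0.05 and Spg7 and Tomm7 at 0.01 each. DESeq2 called 208 genes and the fit without a filter 2 (0 higher members at p below 0.05, against 1212 of 29231 genes). Replicates 3 and 4 alone gave 8 calls, with Tomm20 at -0.04, Timm10 at -0.07, Spg7 at 0.00, Tomm6os at -0.00 and the Tomm40/Tomm40l ratio at -0.02. Replicates 1 and 2 alone gave 0 higher and 0 lower members at p below 0.05 (491 higher and 418 lower of 15397 genes). The members' median there was -0.03, with Lonp1 at 0.05, Tomm40 at 0.01 and Afg3l2 at 0.03. The ratios were Timm9/Timm10 at -0.05, Hspd1/Hspe1 at 0.00, Pmpca/Pmpcb at -0.00 and Afg3l2/Spg7 at 0.14. All 4 groups in 1 fit gave 31 calls, with 0 higher and 4 lower members at p below 0.05 (1100 higher and 1016 lower of 15708 genes). In the AAV comparison, library size alone gave a median of 0.07, against -0.04 over all genes. DESeq2 called 308 genes, the fit without a filter 304 and all 4 groups in 1 fit 1. Htra2 was at 0.00 without a filter and with filterByExpr, and Tomm7 at 0.00 without a filter. For the interaction, library size alone called 205 genes and no filter 61. With library size alone 1 positive and 5 negative members had an unadjusted p below 0.05, against 2575 and 418 of 15708 genes. The members' median was then -0.07, against 0.11 over all genes. With the AAV direction turned, an alternative chosen after seeing the data, the interaction called 0 genes, with 0 members at p below 0.05 and a median of 0.07.

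Leaving out each library gave 0 to 15 calls in the knockout comparison, 15 each without Atf3+/+FS6KD replicate 1 and without Atf3-/-FS6KD replicate 3, with 0 to 1 higher and 0 to 3 lower members at p below 0.05. Without single libraries the log2 fold change of Tomm20 lay between -0.03 and 0.05, Tomm40 between -0.13 and 0.04, Htra2 between -0.03 and 0.02, Tomm6 between -0.00 and 0.09, Timm10 between -0.02 and 0.20 and Tomm6os between -0.02 and 0.15. The ratio differences then lay between -0.05 and 0.03 for Timm17a/Timm17b, -0.01 and 0.17 for Tomm40/Tomm40l, -0.07 and 0.16 for Timm9/Timm10, -0.08 and 0.02 for Hspd1/Hspe1 and -0.24 and 0.05 for Clpp/Clpx. In the AAV comparison there were 1 to 285 calls and a median of 0.10 to 0.15, with Clpp between -0.09 and 0.08, Htra2 between -0.06 and 0.08, Spg7 between -0.11 and 0.01, Tomm7 between -0.02 and 0.01 and the ratios Timm8a1/Timm8b between -0.11 and 0.16 and Timm9/Timm10 between -0.09 and 0.01. The interaction called 0 to 168 genes, with 0 to 1 positive members.

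No clear pairing by replicate number was seen, and with 3 or 4 libraries per group this check cannot exclude one. Deviations of same-numbered libraries correlated at 0.14, 0.09, 0.01 and 0.13 in the knockout and at -0.00, 0.15 and 0.08 in the AAV experiment, and not every library correlated best with its own number. The replicate block left 0 calls in the knockout comparison, with 0 higher and 3 lower members at p below 0.05 (1087 higher and 892 lower of 15592 genes). It moved the AAV count of genes called to 20, with 11 higher members at that p (773 of 15225 genes).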
